A study of Homo sapiens with 6 samples.

Results

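The guanylate-binding proteins (GBPs) of a human kidney cancer line were followed gene by gene through a cytokine exposure. The family was taken by symbol: GBP1 to GBP7 and the pseudogene GBP1P1, 8 of the 61541 genes listed in the count data. Cells of the clear cell renal carcinoma line RCC4 were left untreated (3 libraries) or received interferon gamma (IFNγ, IFNg in the labels) at 1000 U/mL and, in the same medium, TNF (tumour necrosis factor) at 25 ng/mL for 24 h (3 libraries). Both groups are the same single line, and RNA for each biological replicate came from 3 flasks. Poly(A) RNA (500 ng) was read as native molecules by direct RNA nanopore sequencing on a separate flow cell per library. IFNγ and TNF were always given together, so their contributions cannot be told apart. The labels do not say whether replicates were grown or treated on separate days, so p-values measure the spread between these cultures.

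Each library held between 3626000 and 4406296 reads assigned to genes. Levels are given as CPM, read counts normalised for the depth of each library after its total was scaled by TMM, a correction for RNA composition. Of 10067 genes tested with edgeR, 562 were called higher and 257 lower at an adjusted p under 0.05, and the median log2 fold change over all of them was -0.03. The kidney and carcinoma label matched the markers: 10 of 12 renal and clear cell carcinoma genes passed the filter on low counts, among them PAX8, PAX2 and CA9, whereas GGT1 never exceeded 2 counts and LRP2 was at 0. Of 12 leukocyte markers, 8 were at 0 in all libraries and 11 had at most 3 counts in any library. The summed leukocyte marker level was 2.94 to 5.996 CPM untreated and 1.42 to 2.01 CPM treated. CSF1R was the marker above 3 counts, with 22, 21 and 13 counts untreated and 5, 5 and 4 treated in replicates 1, 2 and 3, and it was called lower (edgeR, adjusted p = 0.0314). Among the markers near 0, GGT1 and CD68 share 56.5 and 81.6% of their exonic bases with another gene on the same strand, where reads touching both are by default not counted. All 5 endothelial markers and 4 of 5 fibroblast markers were at 0, with COL1A1 as the exception. The leukocyte markers at 0 in all libraries included PTPRC, CD3E, LYZ and TYROBP, and the part of other cells in the GBP levels was not tested.

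GBPs are large GTPases of the dynamin superfamily and are among the most strongly interferon-inducible proteins known. IFNγ signals through its receptor and the JAK kinases, and interferon-responsive promoters often hold gamma-activated sites (GAS) or interferon-stimulated response elements (ISRE), the latter bound by IRF1 among others. Several GBPs carry a lipid anchor at the C terminus, assemble on membranes and on intracellular bacteria, and pass bacterial lipopolysaccharide to the inflammatory caspase CASP4.

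Promoter stretches are shown first for the 3 protein-coding members with an ISRE-like match, all of them induced here, and then for 2 members that were almost undetected. All are read 5′ to 3′ on the strand of the gene, from a table of RefSeq promoters on GRCh38.p14 in which 5 of the 8 members were matched; those of GBP2, GBP5 and GBP1P1 were not analysed here. Capitals mark a GAS (TTCNNNGAA), an ISRE-like element (GAAA, a gap of 2 bases and GAAA again, which reads TTTC, gap, TTTC on the other strand) or TATAAA. Positions count from the RefSeq start site.
GBP1, chr1:89065313-89065342, minus strand, -134 to -105: gaagtacTTTCAGTTTCatattactctaaa
GBP3, chr1:89022854-89022883, minus strand, -17 to 13: acTTCCTTGAAagaagtacTTTCAGTTTCa
GBP4, chr1:89198924-89198953, minus strand, -11 to 19: catgtccTTTCAATTTCggttctcacagac
GBP6, chr1:89364029-89364058, plus strand, -30 to -1: ttTATAAAggaaagaacagaaaagtaaaag
GBP7, chr1:89176148-89176177, minus strand, -174 to -145: ctaaatcatggactgtcatattactctatt

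GBP1 and GBP3 share the element letter for letter within a run of 19 identical bases, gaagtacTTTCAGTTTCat, which begins at -134 in GBP1 and at -5 in GBP3. The GBP4 element differs in its middle letters and lies across the start site, from -4 to 6. In the GBP7 stretch a run of 13 bases, tcatattactcta, is identical to bases that overlap the end of the GBP1 element, while the ISRE-like letters themselves are absent. Within the window from 250 bases before the start site up to it, 1 of the 5 promoters held the ISRE-like element, as did 3.02% of 35116 RefSeq promoters. With the first 50 transcribed bases included, 3 of the 5 did, against 3.57% of all promoters. A match to the GAS pattern TTCNNNGAA was found in GBP3 alone, at -15 to -7, against 6.57% of all promoters in the 250-base window. Other forms of GAS were not searched, so a promoter without this match may still hold one. The loose kappaB pattern (GGG, a gap of 5 bases and CC) matched GBP4 and GBP7 but also 54.4% of all promoters. TATAAA, searched on the given strand, matched GBP6 and GBP7 and 6.80% of all promoters. The other motifs were searched on both strands, and these matches describe letters in a window, not bound sites.

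After exposure to IFNγ and TNF, 6 of the 8 members were called higher and none lower, where 5.58% of all genes tested were called higher, 2.55% lower and 8.14% in either direction. In these 6 the lowest treated library exceeded the highest untreated one, a separation seen in 13.9% of all genes tested. GBP1, GBP2 and GBP3 had counts in untreated cells, while GBP4, GBP5, GBP6, GBP7 and GBP1P1 were at 0 in all 3 untreated libraries. The members with no or few untreated counts passed the filter on low counts through the treated libraries alone. For GBP2, GBP4, GBP5 and GBP1P1 the call and the separation of the groups therefore add little to the counts themselves. GBP6 and GBP7 stayed under the filter. In RNA from whole cultures, more expressing cells and more RNA per cell cannot be told apart.

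**Figure D1:**
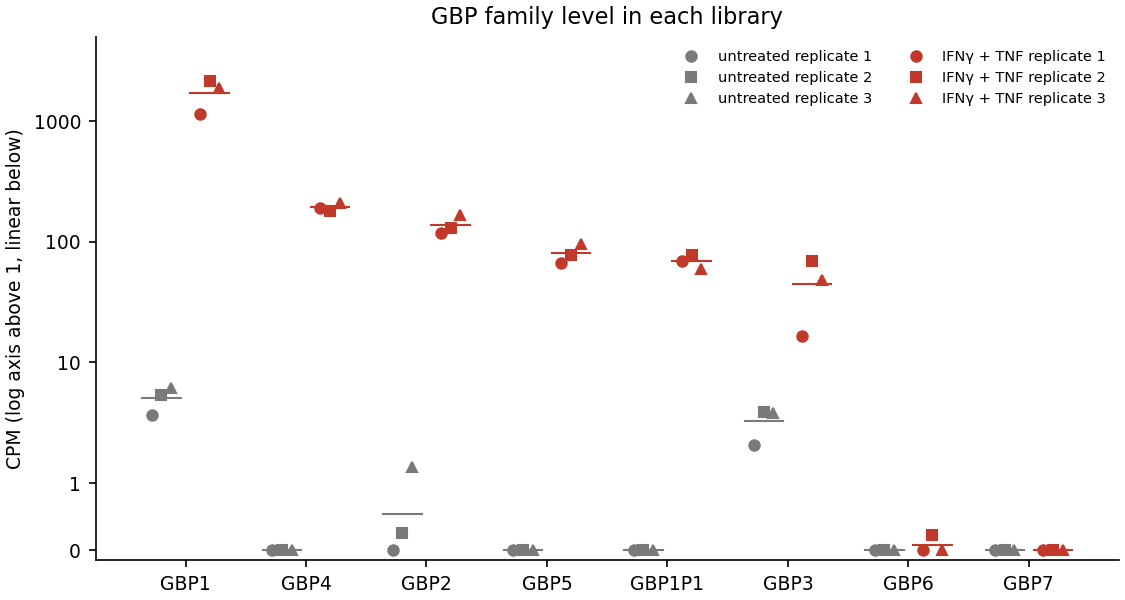
CPM of each GBP family member in each of the 6 libraries, on an axis that is logarithmic above 1 and linear below. Grey points are untreated and red points treated libraries, the symbol gives the replicate, and short lines are group means. The treated points of GBP1 lie between 1149 and 2130.4 CPM, and GBP4, GBP5 and GBP1P1 go from 0 to means of 194, 80.3 and 68.9 CPM.

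GBP1, the best studied member, is a farnesylated GTPase that coats cytosolic bacteria. It lies on the minus strand of chromosome 1 (chr1:89051882-89065360, GRCh38, ENSG00000117228) with 6103 exonic bases. Its level was 3.65, 5.40 and 6.11 CPM in untreated replicates 1, 2 and 3, and 1149, 2130.4 and 1882 CPM in treated replicates 1, 2 and 3. The groups were far apart, and the lowest treated library was replicate 1. Mean levels were 5.05 ± 1.26 CPM untreated and 1720 ± 510.5 CPM treated (SD, n = 3 each), a 340.4-fold difference of means. The log2 fold change was 8.39 with an SE of 0.36 (edgeR, adjusted p = 3.34e-06). By CPM, with no correction for length, GBP1 ranked 94 of 17319 genes with a treated count, compared with rank 8395 in untreated cells.

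GBP3 is, of the protein-coding members, the closest to GBP1 in transcript sequence, with 85.9% identity over 3064 aligned bases. It lies next to it (chr1:89006679-89022894, minus strand, ENSG00000117226, 4284 exonic bases). Its level was 2.09, 3.86 and 3.84 CPM in untreated replicates 1, 2 and 3, and 16.4, 69.8 and 48.3 CPM in treated replicates 1, 2 and 3. The groups did not overlap, and replicate 1 was the lowest library in both. Mean levels were 3.26 ± 1.02 CPM untreated and 44.8 ± 26.9 CPM treated (SD, n = 3 each). The log2 fold change was 3.76 with an SE of 0.54 (edgeR, adjusted p = 0.00283). GBP3 counts equalled 57.1, 71.4 and 63.0% of GBP1 counts in untreated replicates 1, 2 and 3, and 1.43, 3.28 and 2.57% in treated replicates 1, 2 and 3. This ratio did not overlap between the groups (2-sided exact permutation test, p = 0.1, the smallest that 3 against 3 libraries can give). Before exposure GBP1 was above GBP3 by CPM (means of 5.05 and 3.26). Divided by exonic length they were closer (0.828 and 0.762 CPM per kb). After exposure GBP1 and GBP3 were far apart on both scales.

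GBP2, a geranylgeranylated member found on vesicles and on pathogen membranes, lies between GBP1 and GBP4 (chr1:89106132-89150456, minus strand, ENSG00000162645, 7223 exonic bases). It had 0, 1 and 6 counts in untreated replicates 1, 2 and 3, and 409, 581 and 582 counts in treated replicates 1, 2 and 3. The treated libraries, at 118, 130 and 165 CPM, were all far above the untreated ones, whose 7 counts came mostly from replicate 3. In CPM the means were 0.538 ± 0.721 and 138 ± 24.6 (SD, n = 3 each). The ratio of summed counts was 238 (exact 95% interval 115 to 593, counting error only). The fitted log2 fold change was 7.83 with an SE of 0.51 (edgeR, adjusted p = 2.63e-05), and it was 9.73 without untreated replicate 3. Of the exonic bases of GBP2, 8.60% overlap exons of GBP7 on the same strand, none of them in the last 1000 bases at the 3′ end, where direct RNA reads begin.

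GBP4 (chr1:89181144-89198942, minus strand, ENSG00000162654, 6141 exonic bases) lacks the C-terminal lipid anchor signal of GBP1, GBP2 and GBP5. It had 0 counts in every untreated library and 191, 181 and 209 CPM in treated replicates 1, 2 and 3. The treated libraries differed by little, and the mean was 194 ± 14.2 CPM (SD, n = 3). Against a limit of 3 counts per library, 0.782 CPM at most, this was at least 247.6-fold higher (edgeR, adjusted p = 6.44e-06).

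GBP5, known for promoting NLRP3 inflammasome assembly and for restricting HIV infectivity, lies further along the same strand (chr1:89256189-89272860, ENSG00000154451, 10960 exonic bases). It went from 0 counts in each untreated library to 232, 348 and 338 counts in treated replicates 1, 2 and 3. All treated libraries were therefore well above the counting limit, with a mean of 80.3 ± 14.7 CPM (SD, n = 3). The difference was at least 102.7-fold (edgeR, adjusted p = 2.94e-05).

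GBP1P1 (chr1:89407679-89426243, plus strand, ENSG00000225492, 2352 exonic bases) is annotated as a transcribed unprocessed pseudogene, a gene copy that kept introns and is not annotated as coding. It had no count untreated and 241, 348 and 208 counts in treated replicates 1, 2 and 3. The treated mean was 68.9 ± 9.55 CPM (SD, n = 3), at least 88.0-fold higher (edgeR, adjusted p = 2.72e-05). Its longest transcript is 92.9% identical to that of GBP1 over 914 aligned bases, with an identical run of 141 bases. GBP1P1 counts equalled 6.04, 3.67 and 3.14% of GBP1 counts in treated replicates 1, 2 and 3, so the pair did not keep a constant ratio. Whether some GBP1 reads were assigned to the pseudogene was not tested, and its level is uncertain for that reason.

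GBP6 and GBP7, on the plus and minus strand of the same cluster (chr1:89364059-89388160, ENSG00000183347, and chr1:89131742-89176009, ENSG00000213512), were not induced to a detectable level. GBP6 had 1 count in treated replicate 2 and 0 in the other 5 libraries (edgeR without the filter on low counts, adjusted p = 0.691). GBP7 was at 0 in all 6. At this depth a count of 0 allows up to 0.863 CPM in a treated library, so lower levels were not detectable. Of the GBP7 exonic bases, 25.5% overlap those of GBP2, and by the counting program's defaults a read touching both genes is left uncounted.

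Compared per kilobase of exonic length, GBP1 stood at 282 ± 83.6 CPM per kb in treated cells (SD, n = 3), above all others in every library. GBP4 at 31.5 ± 2.31 and GBP1P1 at 29.3 ± 4.06 CPM per kb came next, and their ranges overlapped. GBP2 followed at 19.1 ± 3.41 CPM per kb, below the ranges of both. GBP3 at 10.5 ± 6.28 CPM per kb had a range from 3.83 to 16.3 that met the lower end of GBP2 and contained the whole range of GBP5, which stood at 7.33 ± 1.34 CPM per kb. The order below GBP1 depends on whether levels are divided by length, and by which length. A direct RNA read is a native molecule read from its 3′ end, so counts need not rise with gene length. By CPM alone the treated means were 194 (GBP4), 138 (GBP2), 80.3 (GBP5), 68.9 (GBP1P1) and 44.8 (GBP3). Per kilobase of the longest GENCODE 29 transcript, GBP2 was second at 62.1 ± 11.1 CPM per kb, ahead of GBP1P1 at 39.6 ± 5.49, GBP4 at 31.6 ± 2.31, GBP5 at 17.1 ± 3.14 and GBP3 at 14.6 ± 8.77. On that scale GBP1P1 and GBP4 were not separated beyond their ranges, nor were GBP5 and GBP3. In untreated cells GBP2 was at 0.0745 CPM per kb of exonic length.

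The makeup of the family's RNA changed with the exposure. Summed over the 8 members, the level was 5.74, 9.52 and 11.3 CPM in untreated replicates 1, 2 and 3, and 1610, 2668 and 2459 CPM in treated replicates 1, 2 and 3. The groups did not overlap, the means were 8.85 ± 2.84 and 2246 ± 560.7 CPM (SD, n = 3 each), and GBP reads made up 0.147 to 0.270% of all counts in treated libraries. GBP1 supplied 58.1 ± 4.96% and GBP3 37.0 ± 3.31% of the untreated GBP counts, which numbered only 22, 37 and 50. In treated libraries GBP1 supplied 75.9 ± 4.28% and GBP3 1.87 ± 0.804% (SD, n = 3). The rest of the treated counts came from GBP4 (9.05 ± 2.59%), GBP2 (6.31 ± 1.26%), GBP5 (3.66 ± 0.644%) and GBP1P1 (3.21 ± 0.984%). Thus GBP3 passed from the second largest part of the family's counts to the smallest of the 6 measured members, although its own level rose.

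**Figure D2:**
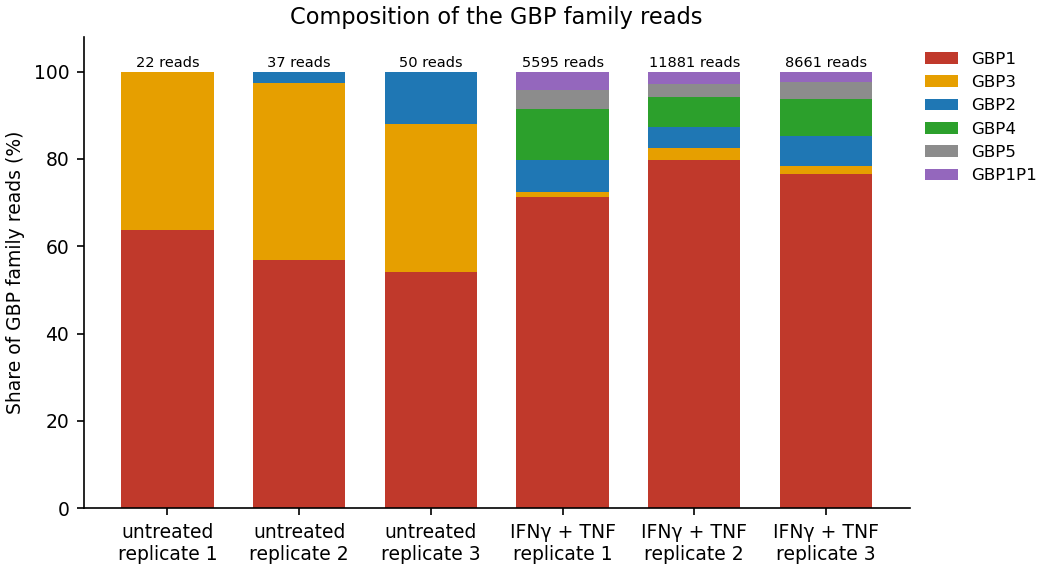
Share of each member in the GBP family counts of each library, in percent, with the number of reads above each bar; the 1 read of GBP6 is too small to see. GBP1 and GBP3 make up most of the few untreated reads, whereas GBP3 is a thin band in the treated libraries.

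Members differed in how much they varied between treated cultures. GBP4 had a coefficient of variation of 7.32%, GBP1P1 13.9%, GBP2 17.9%, GBP5 18.4%, GBP1 29.7% and GBP3 60.0%. GBP1 and GBP3 were lowest in treated replicate 1, as were GBP2 and GBP5. GBP3 there was 16.4 CPM (counting interval 12.4 to 21.2) against 69.8 CPM (62.3 to 78.1) in replicate 2, a ratio of 4.26. GBP1 differed between the same libraries by a ratio of 1.85, with counting intervals of 1113 to 1185 and 2088 to 2174 CPM. GBP4 differed by a ratio of 0.948, and its intervals of 176.8 to 206.1 and 168.7 to 194.0 CPM overlapped. The intervals are 95% exact Poisson limits and cover counting error only. Between replicates 2 and 3 the GBP4 intervals (168.7 to 194.0 and 194.2 to 224.7 CPM) lay just apart. For GBP1 and GBP3 the intervals of all treated libraries were separate, and each of the other 4 measured members had overlapping intervals in replicates 1 and 2 and at least 1 pair of libraries with separate ones. The library totals of treated replicates 1, 2 and 3 were 3806006, 4406296 and 3626000 counts, and their part in this spread was not tested. The order seen in GBP1 and GBP3 was not particular to them. DNM1L (12.7, 36.8 and 26.4 CPM in treated replicates 1, 2 and 3) and GTF2B (20.4, 35.7 and 32.7 CPM), neither of them called, had it too. KRT18, also not called, was highest in replicate 1 (1093, 724.5 and 478.5 CPM). Differences between whole libraries, such as RNA quality, were not tested.

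**Figure D3:**
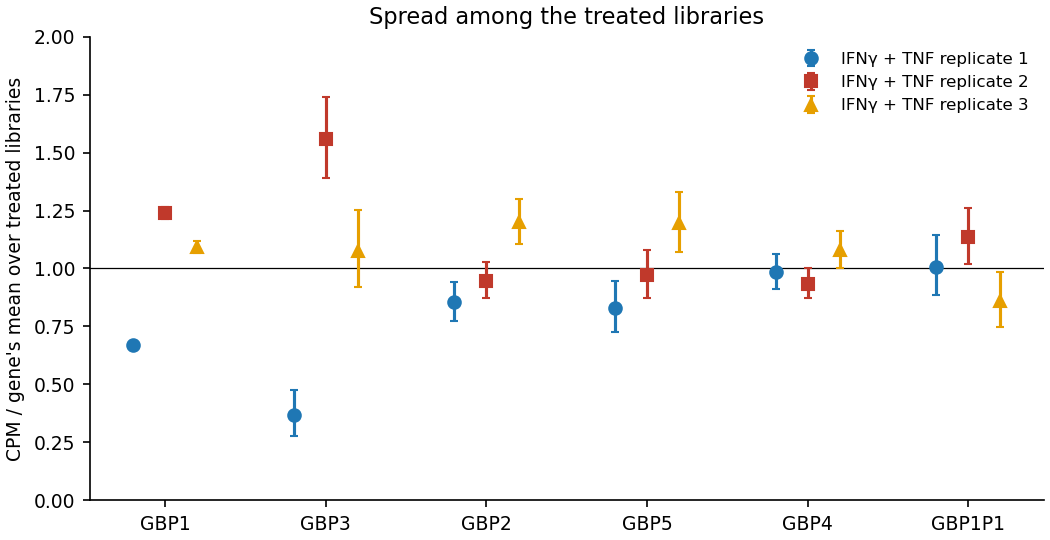
Level of each member in the 3 treated libraries, divided by the mean of that gene over them; bars are 95% Poisson intervals of the counts. GBP1 and GBP3 are low in replicate 1 and high in replicate 2, and GBP4 stays close to 1.

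The 8 members lie in a single cluster of 419.6 kb on chromosome 1 (chr1:89006679-89426243, GRCh38), 6 on the minus and 2 on the plus strand. Within 500 kb on either side, 31 other genes are listed, of which 13 had a count and 5 could be tested. None of these 5 was called by edgeR, by DESeq2 or by limma voom, and 1 had an unadjusted edgeR p under 0.05. They were PKN2, GTF2B, KYAT3, RBMXL1 and LRRC8D, with log2 fold changes from -0.68 to 0.80 and a median of 0.28, against -0.03 over all genes tested. With 8.14% of all genes tested called in either direction by edgeR, no call among 5 genes is not read as a result about the neighbours. GTF2B, which encodes the general transcription factor TFIIB and had the highest CPM among the neighbours, was at 18.9 ± 3.06 CPM untreated and 29.6 ± 8.09 CPM treated (SD, n = 3 each, edgeR adjusted p = 0.215). Of the 10 other genes inside the cluster, 7 were at 0 in all libraries. The processed pseudogene PTGES3P1, chosen after its values were seen, lies downstream of GBP2 on the same strand (chr1:89104285-89104767). It had 0, 1 and 0 counts untreated and 5, 12 and 3 treated, and was thus under the filter. Without that filter, where 4.43% of genes were called higher, its log2 fold change was 3.94 (edgeR, adjusted p = 0.00435).

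**Figure D4:**
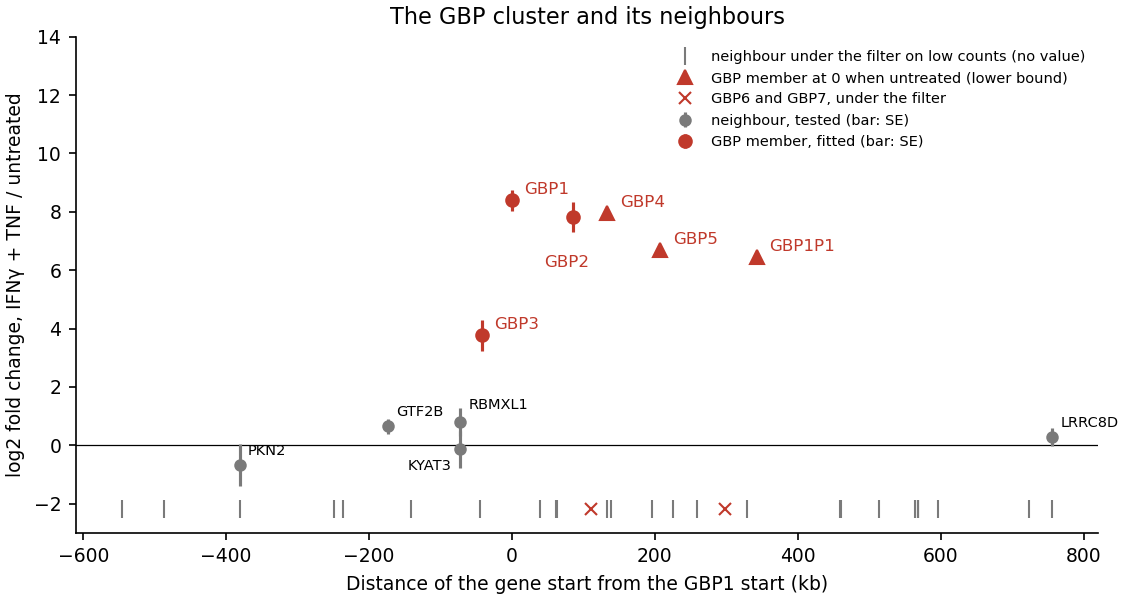
Log2 fold change of the GBP members (red) and of genes within 500 kb (grey) against the distance of the gene start from the GBP1 start, in kb. Bars are SE, triangles are lower bounds for members at 0 when untreated, and marks at the bottom are genes under the filter. The fitted values of GBP1, GBP2 and GBP3 lie between 3.76 and 8.39, and those of the tested neighbours between -0.68 and 0.80. The triangles of GBP4, GBP5 and GBP1P1 set no upper end, and GBP6 and GBP7 have no value.

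In a 16-gene list of IFNγ signalling, which holds receptors, kinases, transcription factors, feedback inhibitors and the target CIITA, 8 of 13 tested genes were called higher and none lower. Over all genes tested 5.58% were called higher and 2.55% lower. The list's median log2 fold change was 2.25, against -0.03 over all genes. IRF1, one of the factors that bind ISREs, had 32.1, 40.4 and 28.9 CPM untreated and 1505, 1247 and 1224 CPM treated in replicates 1, 2 and 3. That is a log2 fold change of 5.29 with an SE of 0.22 (edgeR, adjusted p = 3.34e-06), and unlike GBP1 its highest treated library was replicate 1. SOCS1 and SOCS3, feedback inhibitors of JAK signalling, rose by 5.15 and 3.89 on the log2 scale. CIITA, the regulator of class II antigen presentation genes, had at most 2 counts untreated and rose at least 15.2-fold. CIITA passed the filter on low counts through the treated libraries alone, so its call adds little to the counts themselves. STAT2, a transcription factor of the type I interferon response, had 13.3, 12.1 and 39.6 CPM untreated and 145, 100.2 and 154 CPM treated in replicates 1, 2 and 3. The groups did not overlap, and untreated replicate 3 was the high one of its group. The log2 fold change was 2.60 (edgeR, adjusted p = 0.00612), or 3.38 without that library. IRF2, a relative of IRF1, rose by 2.25 and STAT3 by 1.17 on the log2 scale.

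The receptor chains IFNGR1 (log2 fold change 0.27) and IFNGR2 (0.61), the kinase JAK1 (-0.19) and the inhibitors PTPN2 (0.48) and PIAS1 (-0.09) did not pass the test. JAK2, the other kinase of the receptor, stayed under the filter with 1, 3 and 3 counts untreated and 2, 20 and 15 treated, and it was called without that filter (edgeR, adjusted p = 0.00725). IRF9, the partner of STAT2, was at 0 in all libraries, and IRF8 never exceeded 2 counts. IRF9 shares 42.2% of its exonic bases, and 44.7% of the last 1000 at its 3′ end, with ENSG00000259529 on the same strand, which was also at 0. Reads touching both are by default not counted, so these counts do not show that IRF9 RNA was absent.

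On the TNF to NF-κB side, 7 of 13 tested genes were called higher and none lower, where 5.58% of all genes tested were higher and 2.55% lower. The median log2 fold change was 1.03. TNFAIP3, which encodes the feedback inhibitor A20, rose most. It was at 9.40 ± 2.45 CPM untreated and 155 ± 45.3 CPM treated (SD, n = 3 each), and its log2 fold change was 4.04 with an SE of 0.30 (edgeR, adjusted p = 4.39e-05). The NF-κB subunit genes RELA and NFKB2 and the inhibitor gene NFKBIA rose by 1.63, 1.57 and 1.63 on the log2 scale. The receptor gene TNFRSF1A rose by 1.03. The kinase gene RIPK1 (log2 fold change 1.10) and the subunit gene RELB (1.36) were near the threshold, with edgeR adjusted p of 0.0417 and 0.0429. RIPK1 lost the call on leaving out any library other than untreated replicate 3, with adjusted p of 0.0569 to 0.171. RELB lost it without untreated replicate 2 or any single treated library, at 0.0543 to 0.143.

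Of a 15-gene list of inflammasome genes and genes that act with GBPs, 6 of 8 tested were called higher and none lower, beside shares of 5.58% higher and 2.55% lower over all genes tested. The median log2 fold change was 2.80 with genes near 0 at their lower bound. APOL3, CASP1 and NLRP3 had at most 3 counts in each untreated library and passed the filter on low counts through the treated libraries alone. For these genes the call adds little to the counts themselves. APOL3, an interferon-induced protein that permeabilises bacterial membranes together with GBP1, had 2, 1 and 0 counts untreated and 426, 512 and 444 treated, and it was at least 155-fold higher. CASP4, the caspase that senses lipopolysaccharide, was at 23.5 ± 10.9 CPM untreated and 224 ± 48.2 CPM treated (SD, n = 3 each). Its log2 fold change was 3.24 with an SE of 0.34 (edgeR, adjusted p = 4.48e-04). CASP1, the inflammasome caspase, had at most 1 count untreated and was at least 16.3-fold higher. RNF213, a ubiquitin ligase for lipopolysaccharide, rose by 3.21, and GSDMD, the pore-forming target of these caspases, by 1.40 on the log2 scale. NLRP3 had 3, 0 and 0 counts untreated and 21, 15 and 10 treated, at least 5.22-fold higher (edgeR, adjusted p = 0.0249). That call was lost without untreated replicate 2 or any single treated library, at adjusted p of 0.0640 to 0.106. IL18 (log2 fold change 0.39) and the kinase gene PIM1 (0.67) did not pass. CASP5, NLRC4, IRGM and PYCARD, the last the adaptor between sensors and CASP1, were at 0 in all libraries. AIM2 and IL1B were at 0 untreated and reached 6 and 5 counts at most.

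Genes for the synthesis, attachment and processing of prenyl lipid anchors had no call among those tested. Of 8 genes for prenylation and processing, 6 were tested, and none was called by edgeR, DESeq2 or limma voom, or had an unadjusted edgeR p under 0.05. Their log2 fold changes ran from -0.18 to 0.31 with a median of 0.10. FDPS, the farnesyl diphosphate synthase with the highest CPM of them, was at 232 ± 47.8 CPM untreated and 220 ± 31.1 CPM treated (SD, n = 3 each). FNTB and GGPS1 were under the filter on low counts, with at most 11 and 7 counts in any library. They share 44.0 and 37.3% of their exonic bases with another gene on the same strand, where reads touching both are by default not counted. With 8.14% of all genes tested called in either direction by edgeR, no call among 6 genes is not read as a result about the list.

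Among 12 other dynamin superfamily GTPases, 9 were tested, 1 was called higher and 1 lower, and the median log2 fold change was -0.22. With shares of 5.58% higher and 2.55% lower over all genes tested, 1 call in each direction among 9 genes is not read as a result about the list. MX2, an interferon-induced antiviral GTPase, had no count untreated and 59, 97 and 205 in treated replicates 1, 2 and 3, at least 41.3-fold higher (edgeR, adjusted p = 0.00187). MX2 passed the filter on low counts through the treated libraries alone, so its call adds little to the counts themselves. DNM1, the mainly neuronal dynamin, was lower at 3.01 ± 0.622 against 7.55 ± 0.555 CPM (SD, n = 3 each, edgeR adjusted p = 0.0419). It lost its call in 8 of 13 alternative settings, among them each removal of a single library, with adjusted p of 0.0587 to 0.160 over those removals. DNM2, the ubiquitous dynamin, with the highest CPM of the list, had a log2 fold change of -0.22 (edgeR, adjusted p = 0.591). MX1, often listed beside MX2 as an interferon target, had 3, 5 and 2 counts untreated and 10, 7 and 16 treated, under the filter (edgeR without the filter, adjusted p = 0.0650).

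**Figure D5:**
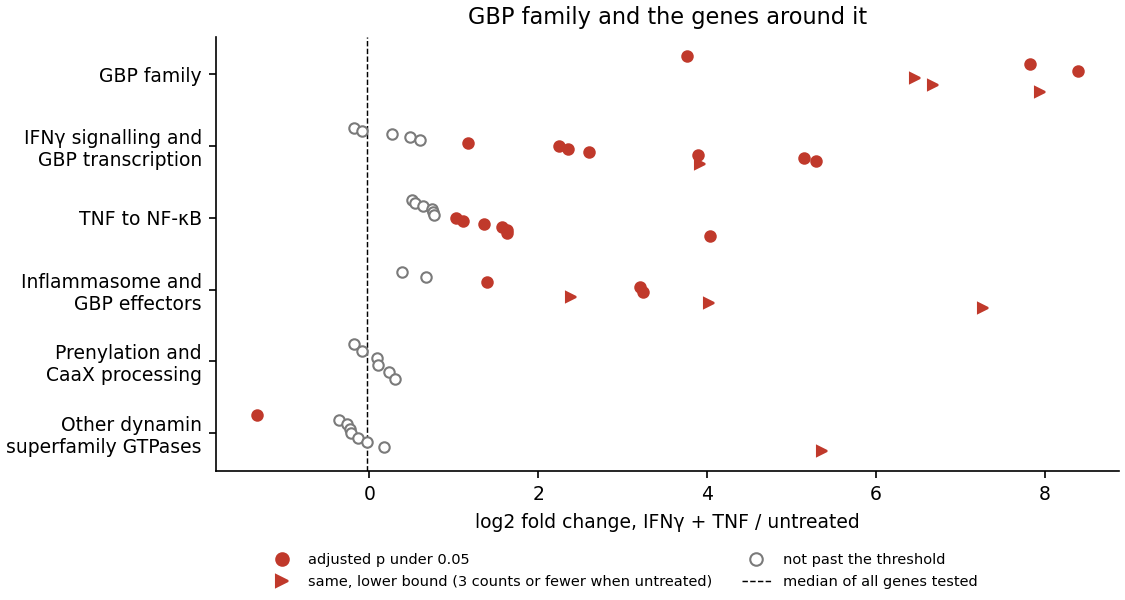
Log2 fold change of every tested gene of the GBP family and of 5 related gene lists. Filled points passed an adjusted p under 0.05, open points did not, arrowheads are lower bounds for genes with at most 3 counts in each untreated library, and the dashed line is the median of all genes tested, -0.03. The signalling and effector lists hold many filled points to the right of it, and the prenylation list lies around it.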

How the data were processed

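Reads entered the authors' analysis at a quality above 7, as the series design text states. The files hold whole-number counts of reads per gene, deposited as made with featureCounts 2.0.1, per the file headers (2.0.0 per the submitters' processing notes), on Ensembl 105 exons, counted by strand. Alignment used minimap2 2.24, SAMtools 1.16 and hg38, per the submitters' processing notes. Options for multi-mapping reads or for reads over several genes were not set, per the file headers. The headers' alignment names include dmso although no vehicle is named in the labels, so groups were taken from the titles.

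Symbols came from a name table for 61369 genes and from GENCODE 29 for 159. Counts were tested with edgeR 4.0.16 (R 4.3.3; quasi-likelihood F test, TMM, filterByExpr, Benjamini-Hochberg over all genes tested), group being the sole term, after the script was tested on simulated data. The SE is the absolute log2 fold change over the square root of F. Genes with at most 3 counts in each untreated library have lower bounds against 3 counts in place of a fold. DESeq2 1.42.0, limma 3.58.1 voom, other scalings and filters, a replicate block and leaving out libraries were alternatives. Transcripts were compared with blastn 2.17.0. Proteins were not analysed here. The members and lists were chosen with earlier results of these data known. Genes were named by a rule: all members, and per list and among the neighbours the called genes with the 4 largest changes, the gene with the highest CPM and regulators at 0. The 5 genes most like the family were added. Other list genes are named to complete a count or to show the spread between libraries, chosen after their values were seen. For some genes of the lists no value is reported here.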

Additional observations from a re-analysis of the deposited data

How the results depend on the processing

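All 6 tested GBP members were called higher under each of 13 alternatives: other size factors, library totals alone, 2 other filters, DESeq2, limma voom, the replicate block and each library left out in turn. The largest adjusted p was 0.0195, for GBP3 with limma voom, and the log2 fold change of GBP3 ran from 3.34 to 4.16. The count of genes changed, 819 in all, became 1328 with every gene of at least 1 count. It was 455 to 1178 with a library left out, 465 without untreated replicate 2 and 455 without treated replicate 3, where fewer libraries were fitted. Deviations from the group means had r of 0.651, -0.0037 and 0.374 in same-numbered pairs of libraries, and from -0.674 to 0.413 in differently numbered ones. The labels state no pairing and the numbers were not taken as such, but a shared effect of replicate number was not tested. With the replicate block 1513 genes were called, and the count of 6 GBP members did not change. Among neighbours, 1 gene in place of 0 was called with every gene tested. The dynamin list had 1 call in place of 2 with every gene tested, with DESeq2 and with any library left out (1 to 1), through DNM1. The ISRE-like element was found in 3 members in place of 1 with the 300-base window. The GBP1 share of treated counts was 73.9 to 78.2% with a treated library left out. As a share of CPM per kilobase it was 73.5% by exonic length and 76.8% by transcript length, the latter a scale added after the data were examined. Under library totals alone the median of all genes was -0.13 in place of -0.03, small beside the GBP differences. Low depth limits GBP6, GBP7 and the untreated values of GBP2.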

Other observations

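Across the 6 libraries, GBP1 followed GBP2, GBP4, GBP5 and GBP1P1 closely, with Pearson r from 0.996 to 0.998 on log2 CPM with a pseudocount of 2. GBP3 stood somewhat apart, with r from 0.923 to 0.950 to the other members. These values describe 6 points in 2 groups and mostly restate the difference between the groups.

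The 5 genes most like the summed GBP level were sought among 6738 genes whose mean CPM over all libraries was 10 or more, where 74 had an r above 0.99. IRF2 was first with r = 0.999, at 8.34, 9.78 and 10.6 CPM untreated and 42.3, 46.0 and 48.8 CPM treated. RTP4, an interferon-induced chaperone for receptors, had r = 0.998 and rose from 0.151 ± 0.261 to 28.1 ± 4.97 CPM (SD, n = 3 each). CYB5A, a cytochrome b5, had r = 0.998 and rose from 113 ± 1.08 to 285 ± 11.2 CPM. ENSG00000226025, for which no symbol was found, had r = 0.998 and was at 0 untreated and 147 ± 23.9 CPM treated. MPZL1, a cell surface glycoprotein, also had r = 0.998 but a small difference, 96.1 ± 1.76 against 115 ± 1.162 CPM, with an adjusted p of 0.445 (edgeR). A high r over 2 groups of 3 thus included a gene that was not called.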
